A study of Homo sapiens with 6 samples.

Results

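The genes of the mitochondrial ribosome were examined in macrophage-like cells of THP-1, an established human monocytic leukaemia line, transfected for 24 h with a control siRNA (the siNC group, 3 libraries, genotype field WT) or with an siRNA to DUSP6 (the siDUSP6 group, 3 libraries, genotype field DUSP6 knockdown). Members were the gene rows whose symbol is MRPL or MRPS followed by a number, with an optional final letter A, B or C, and whose mean over the 6 libraries was at least 1 TPM. TPM is a unit of transcript abundance, scaled by transcript length to a fixed total in each library. The rule found 78 genes, 29 named MRPS for the small subunit and 49 named MRPL for the large subunit, of 63241 gene rows in the table and 14602 that reached the same level. All 78 rows that matched the name pattern reached 1 TPM, so the filter removed none. DUSP6 encodes a cytoplasmic phosphatase of ERK1 and ERK2. By its title the series concerns adenomyosis and a DUSP6 and ERK pathway in macrophage polarization.

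Both groups rest on the same line and medium and on transient transfection, and no label states whether separate cultures gave the libraries, so the p-values cover library-to-library spread that may be technical. For siDUSP6 replicates 2 and 3 the treatment field gives DUSP7 and DUSP8, although their titles and genotypes give DUSP6. DUSP6 was at 359.36, 368.07 and 377.80 TPM in siNC and at 227.10, 217.81 and 222.00 TPM in siDUSP6, and it fell by 0.73 on the log2 scale (limma, adjusted p = 8.667e-05). DUSP7 was at 48.9 ± 1.57 and 38.8 ± 1.35 TPM (mean ± SD over 3 libraries, here and below siNC before siDUSP6) and fell by 0.33 (limma, adjusted p = 0.0111). The DUSP7 call was lost with no variance trend (limma adjusted p = 0.05978), without siNC replicate 1 (0.05353) or 2 (0.05183) and with siDUSP6 replicate 1 alone (0.22). DUSP8 was at 1.78 ± 0.358 and 1.56 ± 0.0569 TPM. In siDUSP6 replicates 1, 2 and 3, DUSP7 was at 39.59, 39.47 and 37.20 TPM. DUSP8 was at 1.51, 1.54 and 1.62 TPM in the same libraries. All 8 macrophage and monocyte markers examined exceeded 1 TPM, among them CD68 (230 and 239 TPM), CSF1R (305 and 293 TPM) and the transcription factor gene SPI1 (208 and 207 TPM), and CD14 rose from 29.9 ± 3.26 to 40.8 ± 1.18 TPM (limma, adjusted p = 0.03332, a call lost with no filter on low genes, with no variance trend and in 5 of 6 fits that left out a library). At an unadjusted limma p of 0.05, 3 of 8 markers (37.5%) were lower and 2 (25%) higher, beside 11.2% and 8.03% of all tested genes. The lower markers were TYROBP (792 and 762 TPM), LYZ (14.7 and 12.3 TPM) and ITGAM (30.6 and 26.9 TPM). The higher markers were CD14 and FCGR2A (8.43 and 11.4 TPM, with overlapping groups). Among these markers CD14 alone was called by limma. Of 9 markers of other cell types, 3 reached 1 TPM. These were PECAM1, which monocytes also express, at 132 and 123 TPM, COL1A1 at 4.69 and 3.99 TPM and CD79A at 1.89 and 1.63 TPM, while the epithelial marker EPCAM was listed at 0 in all 6 libraries. In bulk libraries fewer cells of a type and less RNA per cell cannot be told apart.

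The mitochondrial ribosome translates the few proteins that are encoded by mitochondrial DNA, all of them subunits of the respiratory chain and ATP synthase. Its ribosomal RNAs come from the mitochondrial genome, but every one of its proteins is encoded in the nucleus, made in the cytosol and imported. The small subunit binds mRNA and decodes it, the large subunit joins the amino acids, and each holds some proteins with a counterpart in bacteria and others that bacterial ribosomes lack.

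The 78 transcripts differed widely in level in these cells although their products are assembled into a common particle. Mean levels over the 6 libraries ran from 6.25 TPM for MRPL57 to 337 TPM for MRPS6, a 53.9-fold range, with a median of 48.5 TPM. Most of the genes, 67 of 78, lay between 10 and 100 TPM, 2 lay under 10 TPM and 9 reached 100 TPM. The median was 33.7 TPM over the small subunit genes and 49.0 TPM over the large subunit genes. Summed over members, the small subunit took 1529.5, 1547.6 and 1539.9 TPM in siNC and 1521.2, 1474.9 and 1468.5 TPM in siDUSP6, and the large subunit 2816.3, 2804.3 and 2823.3 TPM and then 2791.7, 2777.2 and 2765.8 TPM. All members together made up 0.423% to 0.436% of the TPM of a library.

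Among small subunit genes, MRPS6, which encodes a protein with a bacterial counterpart, stood above all others. It read 336.08, 338.37 and 336.39 TPM in siNC and 347.55, 330.51 and 333.16 TPM in siDUSP6, so the groups overlapped and the means were 337 and 337 TPM. Its log2 difference was 0.0002 with a 95% interval of -0.056 to 0.0564. MRPS6 shares its locus and strand with SLC5A3, a myo-inositol transporter gene at 68.5 TPM, so reads between these genes could be split in either way and the level of MRPS6 is uncertain. The next small subunit genes by level were MRPS21 (115 TPM), MRPS10 (92.4 TPM) and MRPS18C (77.9 TPM). The lowest were MRPS26 (7.60 TPM), MRPS17 (10.4 TPM), MRPS9 (11.5 TPM) and MRPS5 (14.2 TPM).

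The large subunit was led by MRPL33, with 201.14, 217.21 and 228.57 TPM in siNC and 221.24, 223.57 and 223.90 TPM in siDUSP6. Its groups overlapped, and its siNC libraries were more spread than its siDUSP6 libraries. MRPL15 (149 TPM), MRPL18 (141 TPM) and MRPL37 (119 TPM) followed. At the other end were MRPL57 at 6.25 TPM, MRPL50 at 14.1 TPM, MRPL48 at 15.6 TPM and MRPL46 at 18.1 TPM.

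**Figure D1:**
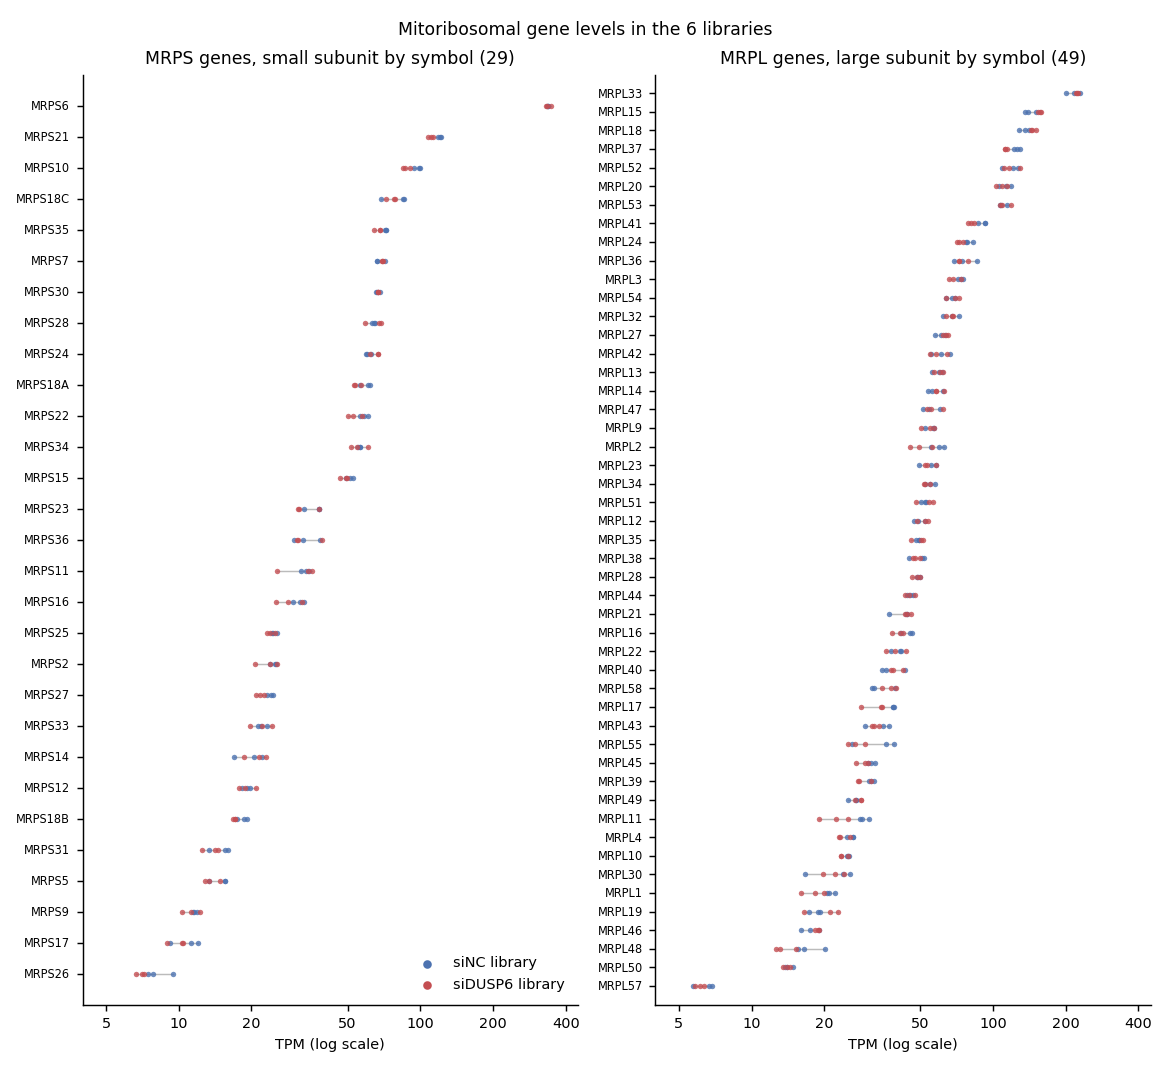
TPM on a log axis of each of the 29 MRPS genes (left) and 49 MRPL genes (right), sorted by mean level, with 1 point per library (blue siNC, red siDUSP6, 3 libraries each). MRPS6 stands at 337 TPM and MRPL57 at 6.25 TPM, and for most genes the 6 libraries lie close together beside the range between genes.

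Replicate spread was small beside the range between genes. The coefficient of variation of a member within a group had a median of 4.80% in siNC and 5.55% in siDUSP6, and the highest were 21.3% and 17.1%. Over the 78 genes the Spearman correlation of mean level with the standard error of the log2 difference was -0.59, and with the log2 difference itself 0.21. Both are descriptions over genes measured in the same 6 libraries.

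The 78 genes showed little difference between siDUSP6 and siNC. Beside all tested genes within the members' range of levels, a similar share of members passed as lower and a smaller share as higher. In a limma fit over all 14602 genes on log2(TPM + 1), with Benjamini-Hochberg adjustment over those genes, 1 of 78 members passed an adjusted p of 0.05. The background was 3.86% of all tested genes called in either direction, 2.37% higher and 1.49% lower, and the member was MRPL37, which was lower. Under median-of-ratios scaling the split of all calls moved from 346 higher and 218 lower to 435 and 159, and the member called was lost. At an unadjusted p of 0.05 the fit gave 13 members lower and 3 higher, 16.7% and 3.85% of 78, beside 11.2% and 8.03% of all tested genes (19.2% together). The 3 siDUSP6 libraries lay below all siNC libraries for 13 members and above them for 2, beside 14.9% and 10.2% of all tested genes (25.1% together), and the groups overlapped for 63. Over the 9141 tested genes in the members' range of levels, 13.9% were lower and 10% higher at an unadjusted p of 0.05, and 17.3% lay wholly lower and 12.3% wholly higher. The lower counts of the members were close to this background. Their higher counts, 3.85% at that p and 2.56% wholly higher, lay below it. These differences in share were not tested. The background in that range includes the members and is not matched on level. Its median level was 24.8 TPM, beside 48.5 TPM for the members.

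Log2 differences of the members ran from -0.38 for MRPL11 to 0.14 for MRPL15, with a median of -0.0355 beside -0.0254 over all tested genes. The difference was below 0 for 51 members, 65.4%, beside 57.9% of all tested genes and 58.2% of those in the same range of levels. The 95% interval of the difference lay wholly within 0.32 of 0 on the log2 scale for 62 of 78 members (79.5%) and within 1.5-fold for 75 (96.2%). Over the tested genes in the same range of levels these shares were 70.9% and 94.6%. The 3 members whose interval passed 1.5-fold were MRPL11, MRPL48 and MRPL55, in each case on the lower side.

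**Figure D2:**
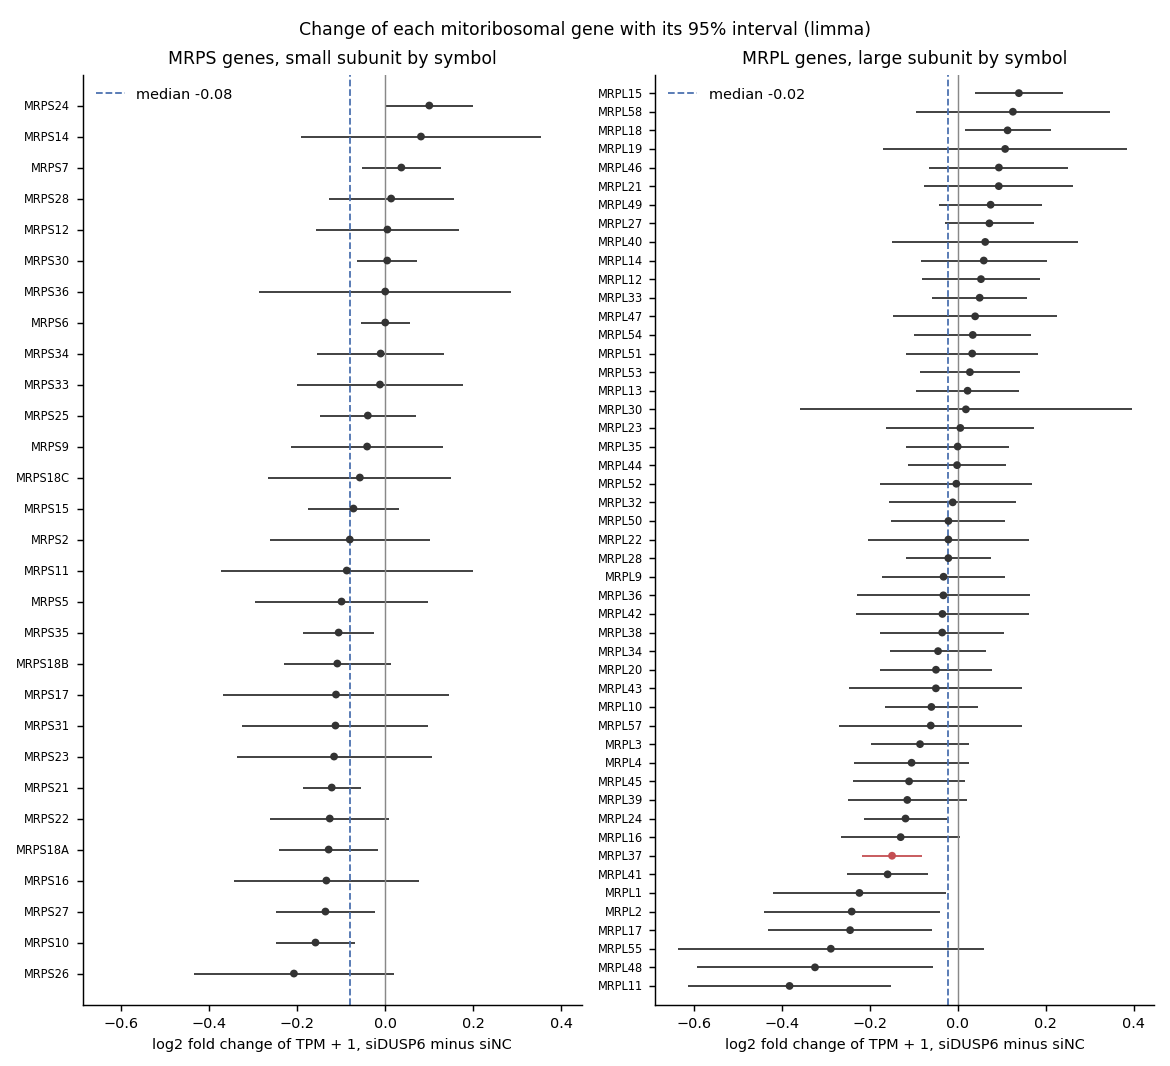
Log2 difference of TPM + 1, siDUSP6 minus siNC, for each MRPS gene (left) and MRPL gene (right), with the 95% interval from limma as a bar; the dashed line is the median of the panel. MRPL37, in red, is the gene that passed the adjusted p of 0.05, and the medians are -0.08 and -0.02.

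MRPL37 (ENSG00000116221, chr1:54184041-54225464, plus strand, GRCh38) encodes a large subunit protein with no bacterial counterpart. It read 125.34, 129.16 and 122.16 TPM in siNC and 112.07, 112.61 and 114.52 TPM in siDUSP6, with means of 126 ± 3.50 and 113 ± 1.29 TPM. Every siDUSP6 library lay below every siNC library. MRPL37 fell by 0.15 on the log2 scale (standard error 0.0288, 95% interval -0.22 to -0.081), at an adjusted p of 0.04119 by limma. The call lay close to the threshold: across the 17 planned and added alternatives the limma adjusted p ran from 0.02984 to 0.2948, and the gene lost its call in all 6 fits that left out a library, at 0.07814 with no filter on low genes, at 0.07052 under median-of-ratios scaling and at 0.1483 with no variance trend. The difference itself stayed between -0.17 and -0.13 in those alternatives.

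Several other large subunit genes had lower means in siDUSP6 but did not pass. MRPL11, whose bacterial counterpart forms the base of the stalk that engages translation factors, had the most negative difference among the members. It read 30.66, 28.61 and 28.00 TPM in siNC and 19.08, 22.36 and 25.16 TPM in siDUSP6, without overlap, and the siDUSP6 libraries were the more spread. The log2 difference was -0.38 (95% interval -0.61 to -0.15, limma adjusted p = 0.08954). MRPL48, a protein of the central protuberance with no bacterial counterpart, read 20.18, 16.57 and 15.54 TPM in siNC and 15.35, 12.61 and 13.08 TPM in siDUSP6. Its groups were set apart only narrowly, and the log2 difference was -0.32 (limma adjusted p = 0.1843).

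MRPL17, next to the exit of the peptide tunnel in bacteria, read 38.77, 38.55 and 38.37 TPM and then 34.82, 28.39 and 34.35 TPM, a log2 difference of -0.24 (limma adjusted p = 0.1538). Its siNC libraries were nearly equal and 1 siDUSP6 library lay well below the others. MRPL2, whose bacterial counterpart lies near the peptidyl transferase centre, was at 59.2 ± 3.89 and 50.1 ± 5.39 TPM, with overlapping groups and a log2 difference of -0.24 (limma adjusted p = 0.1852). MRPL55 was at 33.7 ± 6.74 and 27.1 ± 2.26 TPM, with overlapping groups because 1 siNC library (26.15 TPM) lay among the siDUSP6 values. MRPL41 (not among the genes named by rule, and added because its p was the fourth smallest of the members) read 93.03, 86.93 and 92.24 TPM and then 81.07, 83.63 and 78.63 TPM, without overlap, at a limma adjusted p of 0.07998.

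Higher values in siDUSP6 were found for fewer large subunit genes. MRPL15 (ENSG00000137547) read 139.13, 151.00 and 135.68 TPM in siNC and 156.74, 154.16 and 157.68 TPM in siDUSP6, all above siNC. The log2 difference was 0.14 (95% interval 0.039 to 0.24, limma adjusted p = 0.1354). Without siNC replicate 2, its highest siNC library, MRPL15 passed at a limma adjusted p of 0.04623. MRPL18, a protein that binds 5S ribosomal RNA in bacteria, read 128.08, 136.18 and 141.31 TPM and then 143.72, 150.50 and 144.34 TPM, again without overlap, with a log2 difference of 0.11 (limma adjusted p = 0.2012). MRPL19 (18.5 and 20.1 TPM) and MRPL46 (17.5 and 18.7 TPM) had higher means in siDUSP6 with overlapping groups.

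No small subunit gene passed the limma threshold. At an unadjusted p of 0.05, 5 were lower and 1 was higher, and for 6 all siDUSP6 libraries lay below all siNC libraries. The lower counts were 17.2% and 20.7% of the 29 genes, beside 11.2% and 14.9% of all tested genes and 13.9% and 17.3% of those in the range of levels of all members. The smallest p belonged to MRPS21, a small subunit protein with a bacterial counterpart, which read 121.25, 120.92 and 118.50 TPM in siNC and 107.58, 112.65 and 111.13 TPM in siDUSP6. The groups did not overlap, and the log2 difference was -0.12 (95% interval -0.19 to -0.056, limma adjusted p = 0.06828). MRPS10 (chr6:42206801-42217865, minus strand), which in bacteria lies in the head of the small subunit, read 99.89, 93.96 and 98.69 TPM and then 86.49, 90.54 and 84.81 TPM. Again every siDUSP6 library was below every siNC library, at a log2 difference of -0.16 (95% interval -0.25 to -0.069, limma adjusted p = 0.0764).

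MRPS27, a pentatricopeptide repeat protein without a bacterial counterpart, read 24.60, 24.03 and 23.20 TPM in siNC and 22.44, 21.72 and 20.96 TPM in siDUSP6, without overlap (log2 difference -0.14, limma adjusted p = 0.1813). MRPS26, the small subunit gene with the lowest level, read 7.80, 9.44 and 7.46 TPM and then 6.66, 7.06 and 7.18 TPM, the most negative difference of the subunit at -0.21 (limma adjusted p = 0.3002). Its siNC libraries spread more widely than the gap between the groups. MRPS16 (31.5 and 28.7 TPM) had overlapping groups.

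At the other end of the small subunit, MRPS24, whose bacterial counterpart lines the mRNA entry channel, read 59.55, 60.13 and 62.66 TPM in siNC and 62.05, 67.07 and 66.64 TPM in siDUSP6. The groups overlapped through the first siDUSP6 library, and the log2 difference was 0.10 (limma adjusted p = 0.2544). MRPS14 (19.8 and 21.0 TPM), MRPS7 (67.8 and 69.5 TPM), MRPS28 (64.27 and 65.03 TPM) and MRPS12, whose bacterial counterpart is part of the decoding centre (19.1 and 19.2 TPM), differed between the groups by less than the SD of at least 1 group.

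**Figure D3:**
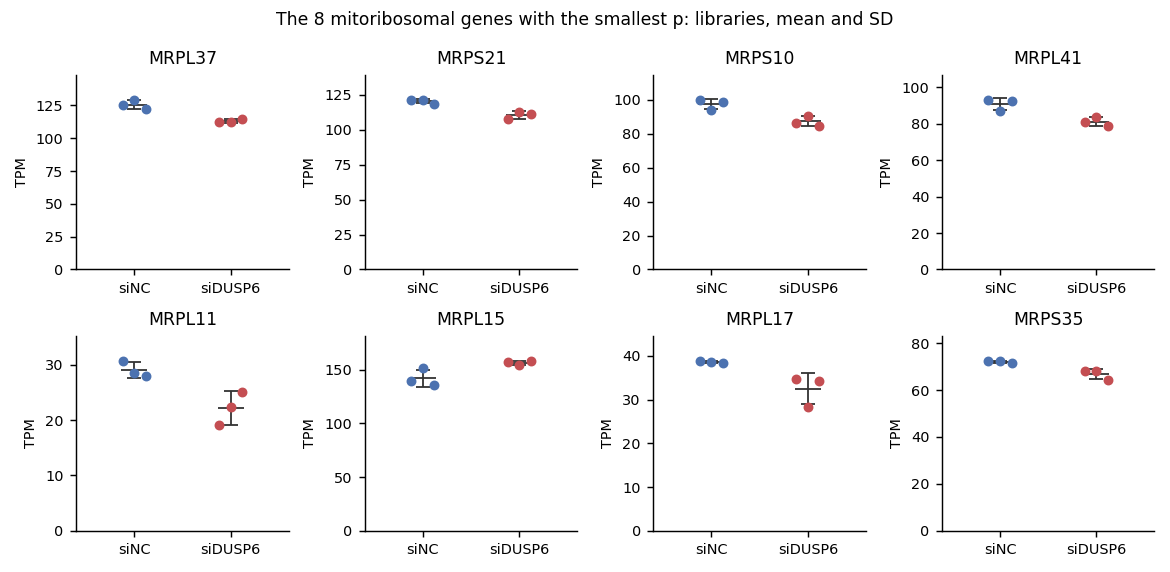
TPM in each library of the 8 members with the smallest limma p, with a bar for the mean and SD of the 3 siNC (blue) and 3 siDUSP6 (red) libraries; each axis starts at 0. In all 8 panels the groups do not overlap, MRPL15 is the gene that is higher in siDUSP6, and MRPL37 is the gene called.

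Symbols and position in the particle do not always match, and a few members have known roles beyond the elongation of proteins. MRPS30 and MRPS18A carry small subunit symbols but sit in the large subunit of the human mitoribosome, and the MRPS36 product is a subunit of the 2-oxoglutarate dehydrogenase complex. MRPS30 read 67.96, 65.60 and 66.00 TPM in siNC and 66.54, 67.09 and 66.55 TPM in siDUSP6, a log2 difference of 0.0046 with a 95% interval of -0.064 to 0.073. MRPS36 was at 33.7 ± 4.39 and 33.7 ± 4.66 TPM, a difference of 0.0002 whose interval of -0.29 to 0.29 was among the wider ones.

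The 3 genes descended from the bacterial S18 protein differed in level. MRPS18C, which holds the bacterial position in the small subunit, was at 79.6 ± 9.49 and 76.2 ± 3.39 TPM with overlapping groups. MRPS18A, at 59.7 ± 3.02 and 54.5 ± 1.88 TPM, also overlapped (log2 difference -0.13, limma adjusted p = 0.2076). MRPS18B, also in the small subunit, read 19.10, 18.70 and 17.42 TPM and then 17.11, 16.82 and 17.03 TPM, without overlap (log2 difference -0.11, limma adjusted p = 0.3132).

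MRPL12, the stalk protein that is also reported to bind the mitochondrial RNA polymerase, was at 49.5 ± 2.69 and 51.4 ± 2.75 TPM. MRPL58, a peptide release protein that frees stalled mitoribosomes and is also built into the large subunit, read 31.48, 39.35 and 32.24 TPM and then 34.76, 39.53 and 37.98 TPM. Both had overlapping groups, and neither passed by limma (adjusted p of 0.6701 and 0.5264).

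The subunits differed slightly in their middle values. The median log2 difference was -0.0804 over the 29 small subunit genes and -0.0216 over the 49 large subunit genes, beside -0.0254 over all tested genes. The difference was below 0 for 21 small subunit genes (72.4%) and 30 large subunit genes (61.2%). With MRPS30 and MRPS18A counted in the large subunit and MRPS36 left out, the medians were -0.0838 over 26 genes and -0.0216 over 51. Members of a subunit are not replicates of a condition, so these medians carry no test.

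Library by library, the median deviation of small subunit genes from their siNC means was 0.0071, 0.0061 and -0.0024 in siNC and -0.0430, -0.0930 and -0.1052 in siDUSP6. For large subunit genes it was 0.0210, 0.0010 and -0.0051 in siNC and -0.0119, -0.0349 and -0.0326 in siDUSP6. Over all tested genes the siDUSP6 libraries were at -0.0189, -0.0188 and -0.0339, so the large subunit lay near the whole transcriptome and the small subunit below it in each siDUSP6 library. The distance was smallest in siDUSP6 replicate 1, the library whose treatment field names DUSP6, and a link to that field was not tested. With that library alone against siNC, the small subunit median was -0.0430 and the large subunit median -0.0119.

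Summed TPM gave a smaller contrast, because abundant genes such as MRPS6 weigh most in a sum. From siNC to siDUSP6 the mean of the small subunit sum differed by -3.3% and that of the large subunit sum by -1.29%. Without MRPS6 the small subunit sum was 1202 ± 8.05 TPM in siNC and 1151 ± 20.1 TPM in siDUSP6, a difference of -4.24%. The ratio of small to large subunit sums was 0.5431, 0.5519 and 0.5454 in siNC and 0.5449, 0.5311 and 0.5309 in siDUSP6. These groups overlapped, since siDUSP6 replicate 1 lay above siNC replicate 1.

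**Figure D4:**
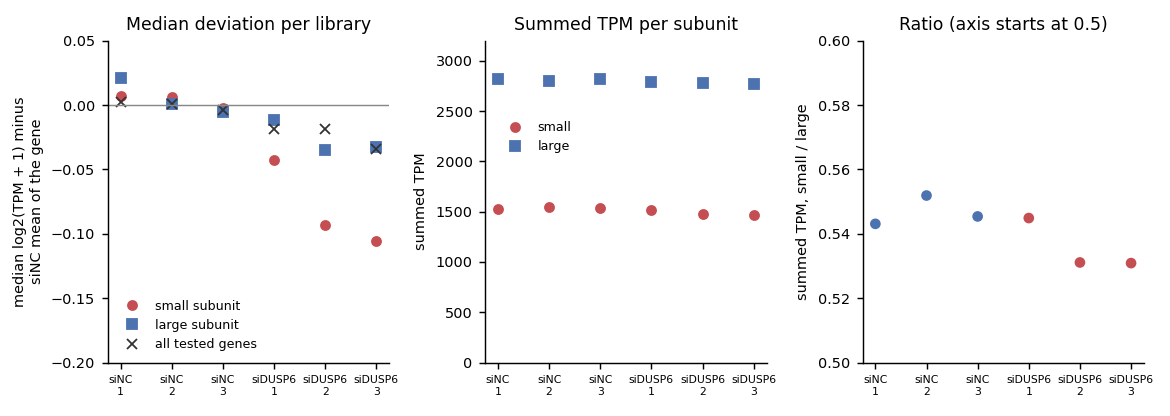
Left, median over small subunit (red circles), large subunit (blue squares) and all tested genes (crosses) of log2(TPM + 1) minus the gene's siNC mean, in each of the 6 libraries. Middle, summed TPM of each subunit; right, the ratio of these sums (blue siNC, red siDUSP6, axis from 0.5 to 0.6), where siDUSP6 replicate 1 at 0.5449 lies among the siNC libraries.

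Split by origin, all 10 small subunit proteins whose structure-based names mark them as absent from bacterial ribosomes had a log2 difference below 0, with a median of -0.1108 and a range from -0.21 for MRPS26 to -0.0102 for MRPS34. For 4 of these 10 the groups did not overlap, namely MRPS26, MRPS27, MRPS18B and MRPS35. Over all tested genes 14.9% lay wholly lower and 57.9% had a difference below 0. None was called by limma, and 2 had an unadjusted p under 0.05. MRPS18B counts here by its name, although it descends from the bacterial S18 protein. The 16 small subunit genes with a bacterial counterpart had a median of -0.0648 and 10 below 0. In the large subunit the medians were -0.0217 over 30 genes with a counterpart and -0.0215 over 21 without. The split was made after values were known and is a description.

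The other parts of the mitochondrial translation system were listed separately. In the list of mitoribosomal proteins with other symbols, 6 were tested: DAP3, CHCHD1, AURKAIP1, PTCD3, GADD45GIP1 and OXA1L. OXA1L, a membrane insertase, is not itself a ribosomal protein but was counted in this list. By limma none of the 6 was called and none had an unadjusted p under 0.05, with a median log2 difference of -0.0397. DAP3, a small subunit GTP-binding protein, was at 131 ± 3.10 and 127 ± 1.57 TPM, in the range of the most abundant members. GADD45GIP1, a large subunit protein, was at 13.1 ± 1.19 and 11.8 ± 0.345 TPM, and CHCHD1, in the small subunit, at 41.1 ± 1.09 and 38.8 ± 1.67 TPM, both with overlapping groups.

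Of 28 tested rows for mitoribosome assembly factors, none was called by limma and 7 (25%) were lower at an unadjusted p of 0.05, beside 11.2% of all tested genes, with a median of -0.1216. The list names 27 genes, and GTPBP6 has an additional row with the same values, which counts in the share and the median. MRM2, which methylates the large subunit rRNA, was at 30.7 ± 1.86 and 26.4 ± 0.990 TPM (limma adjusted p = 0.1025), and the RNA helicase gene DHX30 at 31.1 ± 1.41 and 27.5 ± 0.626 TPM (limma adjusted p = 0.1056). The groups of both did not overlap. Among 15 genes listed for mitochondrial translation, not all of them translation factors, none was called by limma. At an unadjusted limma p of 0.05, 3 (20%) were lower, and the median was -0.0913. MTFMT, which formylates the initiator tRNA, was at 15.1 ± 0.656 and 12.9 ± 0.476 TPM without overlap (limma adjusted p = 0.1027), and the initiation factor gene MTIF3 at 56.4 ± 4.17 and 49.2 ± 3.71 TPM with overlap (limma adjusted p = 0.2135). In 15 genes of mitochondrial transcription and RNA processing the limma count was 0 called and 1 at an unadjusted p of 0.05, with a median of -0.0194. That gene was PNPT1, a polynucleotide phosphorylase, at 64.7 ± 3.89 and 79.2 ± 6.36 TPM, with all siDUSP6 libraries higher (limma adjusted p = 0.07542). GRSF1, a protein of mitochondrial RNA granules, was at 85.0 ± 2.88 and 81.1 ± 1.89 TPM.

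The transcripts encoded in mitochondrial DNA include both the RNA of the mitoribosome and the messages it translates. Of 15 tested, 5 (33.3%) were called lower by limma, beside 1.49% of all tested genes, with a median of -0.061 over the list. These genes were abundant, and their median standard error was 0.0138, beside 0.0843 over all tested genes. Counts of calls rise with that precision and do not measure the size of a change. The difference was below 0 for 13. For 9 (60%) the siDUSP6 libraries lay wholly lower and for 2 (13.3%) wholly higher, beside 14.9% and 10.2% of all tested genes. MT-ND1, a subunit of complex I, fell from 5107 ± 37.4 to 4702 ± 23.4 TPM (log2 difference -0.12, limma adjusted p = 0.00196). MT-ND2 fell by 0.0997 (limma adjusted p = 0.004059), MT-ND4 fell by 0.0813 (limma adjusted p = 0.006976) and MT-CO1, a subunit of complex IV, fell by 0.0849 (limma adjusted p = 0.0199). MT-CO3 was the fifth called (limma adjusted p = 0.04507). The ribosomal RNAs did not pass: the small subunit rRNA MT-RNR1 was at 1626 ± 41.8 and 1620 ± 47.6 TPM, and the large subunit rRNA MT-RNR2 at 6367 ± 98.5 and 6541 ± 56.2 TPM (limma adjusted p of 0.9368 and 0.1923; these RNAs are outside the rule for named genes and were added for their place in the particle). A library made from polyadenylated RNA samples these rRNAs by their tails, so their levels are not those of the ribosome. The count of 5 depended on the settings and went to 0 with no variance trend, 1 with no low filter, 2 under quantile normalization and 3 in each fit that left out a library.

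The cytosolic ribosomal proteins, a module of 79 genes, had a median of -0.0200, with 2 genes called lower by limma, RPL7 (1372 ± 17.1 and 1294 ± 14.9 TPM, adjusted p = 0.03796) and RPL7A (1280 ± 10.2 and 1220 ± 10.04 TPM, adjusted p = 0.04419). At an unadjusted p of 0.05, 19 of 79 (24.1%) were lower and 0 higher, and 25 (31.6%) lay wholly lower. Over all tested genes these lower shares were 11.2% and 14.9%, and in the mitochondrial module 16.7% in each count. The difference between the modules was not tested. The cytosolic genes had a higher median level (1120 beside 48.5 TPM) and a smaller median standard error (0.0231 beside 0.0594). Such counts depend on that precision and do not rank the modules by size of change. The median log2 difference was nearer 0 in the cytosolic module (-0.0200 beside -0.0355). Both calls were lost under median-of-ratios scaling, with no filter, with no variance trend and in each fit that left out a library. Their summed TPM, 110640, 110496 and 111862 in siNC and 109494, 109381 and 109311 in siDUSP6, was many times that of the mitochondrial module.

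The start regions of these genes were read from RefSeq promoter windows of 300 bases (250 before the start and 50 after it, GRCh38.p14), which were available for 69 of 78 members. Short motifs were searched on both strands by exact match: CCGGAAG for ETS factors such as GABP, AAGATGGC for YY1, GGGCGG for Sp1 and the palindromic NRF1 motif. These factors are known regulators of nuclear genes for mitochondrial proteins. The ETS and YY1 strings were held by a larger share of member windows than of tested genes, and the Sp1 and NRF1 strings by a smaller share. No test was made of these shares. The ETS string was found in 29 windows (42%), beside 20% of 10378 windows of tested genes and 10.7% of all 27305 windows. The YY1 string was found in 20 (29%), beside 5.55% and 3.03%. The Sp1 string was in 60.9% of member windows, beside 68.9% and 44.6%, and the NRF1 string in 1.45%, beside 2.26% and 1.36%. Members and tested genes also differed in base composition, with a median of 60.3% and 65% G or C.

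**Figure D5:**
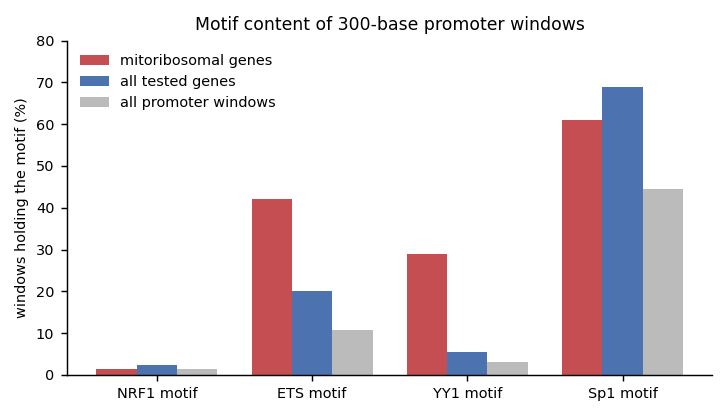
Share of promoter windows of 300 bases that hold each motif on either strand, for 69 members, 10378 tested genes and all 27305 windows. The ETS and YY1 bars of the members reach 42% and 29%, above both other bars, while the Sp1 and NRF1 bars of the members lie below those of the tested genes.

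By subunit, the ETS string was in 44.4% of 27 small subunit and 40.5% of 42 large subunit windows and the YY1 string in 29.6% and 28.6%. The Sp1 string was in 70.4% of small subunit windows, above the share of tested genes, and in 54.8% of large subunit windows, below it. The strings were placed differently. Of 21 YY1 matches, 17 were on the strand of the gene, 16 lay within 50 bases of the start and the median first base was 9 bases after it. Of 39 ETS matches, 18 were on the strand of the gene, 27 lay within 50 bases of the start and the median first base was 22 bases before it. Both strings were held by 8 members, in 0 of them overlapping. The windows below, 30 bases each, show the string in capitals for members described above, first the YY1 string and then the ETS string on the same strand of MRPS10 and MRPS18A, followed by YY1 strings of other members and ETS strings of MRPL33, MRPL48 and MRPS21. They are shown because the YY1 string recurs in members of both subunits. In the YY1 windows shown, the stretch before the string differs between genes. The bases ggc follow it in each of them except that of MRPS27. Among matches on the strand of the gene that are not shown, ggc follows in MRPL22 and MRPL38. It does not follow in MRPL20, MRPL42, MRPL45, MRPL51, MRPL52 and MRPS7.
MRPS10 (chr6:42217834-42217863, minus strand, YY1): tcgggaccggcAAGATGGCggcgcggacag
MRPS10 (chr6:42217865-42217894, minus strand, ETS): ccgctgtaaccCCGGAAGcaatcctgagag
MRPS18A (chr6:43687764-43687793, minus strand, YY1): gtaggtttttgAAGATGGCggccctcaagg
MRPS18A (chr6:43687804-43687833, minus strand, ETS): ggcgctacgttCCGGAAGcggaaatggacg
MRPS18B (chr6:30617852-30617881, plus strand, YY1): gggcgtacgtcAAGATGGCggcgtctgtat
MRPS24 (chr7:43869480-43869509, minus strand, YY1): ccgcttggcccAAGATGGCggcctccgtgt
MRPS30 (chr5:44808949-44808978, plus strand, YY1): aatcgcgggcaAAGATGGCggcggccaggt
MRPS27 (chr5:72320206-72320235, minus strand, YY1): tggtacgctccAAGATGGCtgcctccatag
MRPL46 (chr15:88467362-88467391, minus strand, YY1): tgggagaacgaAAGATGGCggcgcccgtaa
MRPL50 (chr9:101398577-101398606, minus strand, YY1): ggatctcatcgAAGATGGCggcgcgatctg
MRPL33 (chr2:27771700-27771729, plus strand, ETS): cgggccgtgccCCGGAAGcagttgttgttg
MRPL48 (chr11:73787800-73787829, plus strand, ETS, opposite strand): aatttcagaagCTTCCGGaactaaaatgat
MRPS21 (chr1:150293839-150293868, plus strand, ETS, opposite strand): cgtaatttccgCTTCCGGtagtgagaaccc

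The YY1 string contains ATG. Of 17 YY1 matches on the strand of the gene, the ATG was an annotated start codon of that gene in GENCODE release 29 in 12 (70.6%), among them those of MRPS10, MRPS18A, MRPS18B, MRPS24, MRPS27, MRPS30, MRPL46 and MRPL50. In tested genes outside the module this was so for 220 of 420 matches (52.4%). A string at a start codon is therefore partly coding sequence, from its ATG on. A match is a description of letters and not evidence of binding.

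Members with and without a string were set side by side by their medians, with no test. The median log2 difference was -0.0357 over members with the ETS string and -0.0431 over those without, and -0.0216 and -0.0616 for the YY1 string. Members with either string, 41 of 69 (59.4%), had a median level of 52.4 TPM, and the 28 with neither had 31.5 TPM. Members with neither included MRPL37 and MRPL11, whose windows held none of the 4 motifs. The stretch before the RefSeq start of MRPL37 that no annotated exon covers is given because MRPL37 is the member that was called, and it has no capitals because it holds no match.
MRPL37 (chr1:54200074-54200166, plus strand, 93 bases): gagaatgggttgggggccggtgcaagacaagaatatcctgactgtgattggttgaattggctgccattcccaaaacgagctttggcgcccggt

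The regulators themselves differed little. None of 12 tested was called by limma and 2 (16.7%) were lower at an unadjusted p of 0.05, beside 11.2% of all tested genes. For 3 (25%) the siDUSP6 libraries lay wholly lower, beside 14.9% of all tested genes. SP1 was at 41.0 ± 0.860 and 37.9 ± 1.34 TPM (limma adjusted p = 0.2029) and GABPA, the ETS subunit of GABP, at 17.2 ± 0.272 and 15.7 ± 0.640 TPM (limma adjusted p = 0.2519), both without overlap.

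Members were spread over 21 chromosomes, with 8 each on chromosomes 1, 2 and 17, yet many lay back to back with another gene. By GENCODE release 29, 17 of 78 members (21.8%) had an opposite-strand protein-coding gene whose start lay up to 1000 bases upstream of their own. Among protein-coding tested genes this held for 1182 of 11925 (9.91%). Opposite-strand genes that start downstream of the member's start, and so overlap it, were not counted. In 1 case both partners were members: MRPL46 and MRPS11, a large and a small subunit gene on chromosome 15, start 34 bases apart. MRPL46 read 18.98, 16.06 and 17.39 TPM in siNC and 18.76, 18.96 and 18.29 TPM in siDUSP6, and MRPS11 read 33.78, 31.96 and 34.69 TPM and then 35.50, 25.53 and 34.24 TPM. The groups overlapped for both.

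Other partners belonged to complex I, namely NDUFS6, 34 bases from MRPL36, and NDUFB5, 36 bases from MRPL47, and to the cytosolic chaperonin, namely TCP1, 63 bases from MRPL18. TCP1 was at 318 and 321 TPM while MRPL18 was at 135 and 146 TPM. Of 16 partners tested, none was called by limma, and the smallest adjusted p was 0.4008, for NDUFB5. The median log2 difference was -0.0102 over members with such a partner and -0.0451 over the others.

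Genomic overlap limits how firmly some members can be read. The library kit keeps strand, but whether counting used it is not given in the sources used here. By annotation 38 members overlap a gene on the opposite strand, among them MRPL37, whose locus overlaps SSBP3 at 87.5 TPM, and 13 overlap a protein-coding gene on the same strand. By symbol, 81 further rows were pseudogenes of members, of which 16 were above 0 and 2 reached 1 TPM on average, the larger being MRPL45P2 at 2.46 TPM. Reads could therefore be split between 36 members and a named copy.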

How the data were processed

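Total RNA was made into stranded mRNA libraries, per the labels' protocols. TPM values for each gene, 1 column per library, were deposited by the authors. Per the submitters' processing notes, the build GRCh38 and the tools fastp, HISAT2 and StringTie are named, with no versions; which of them produced the TPM, and from which annotation, is not given in the sources used here. Columns sum to 1000000, so TPM keep no depth, the depth of each library is unknown, and a change in abundant transcripts shifts all others. Of 63262 rows, 21 had no gene ID and were left out.

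Groups came from the sample titles. The fit used limma 3.58.1 under R 4.3.3 on log2(TPM + 1), with a term for group, a variance trend, genes averaging 1 TPM or more, and two-sided p-values with Benjamini-Hochberg adjustment over 14602 genes. Fold changes on this scale understate those of low genes. An exact permutation test of 3 libraries against 3 has a smallest two-sided p of 0.1, so p-values come from limma's model. Same-numbered libraries deviated together at correlations of 0.0252, -0.0365 and 0.048, so numbers were not taken as pairs. The fit was tested on simulated data.

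Members, lists and tests were chosen with earlier results of these data known. Lists were written from general knowledge, and protein origin and subunit position were added after the files were seen. Named were DUSP6, DUSP7, DUSP8, every member called, in each subunit the 5 highest and 5 lowest log2 differences and the 4 highest and 4 lowest levels, MRPS18A, MRPS18B, MRPS18C, MRPS30, MRPS36, MRPL12 and MRPL58, and in each list up to 4 called genes or the 2 with the smallest p. Coordinates come from GENCODE release 29 (all 78 members matched), promoters from RefSeq GRCh38.p14. The alternatives changed the pseudocount (0.1 or 5), the filter (none, or 5 TPM on average), the scaling (median-of-ratios, quantile, or TPM recomputed after removing the 50 most abundant and all mitochondrially encoded genes), the variance trend (none or robust) and the libraries (replicate number as a block, each left out in turn). The comparison of siDUSP6 replicate 1 alone with siNC was added after seeing the data.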

Additional observations from a re-analysis of the deposited data

How the results depend on the processing

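The count of 564 calls over all genes moved to 360 with no filter, 124 with no variance trend, 121 with the replicate number as a block, 49 with siDUSP6 replicate 1 alone against siNC, and 222 to 266 in the fits that left out a library. The count of 1 called member went to 0 with no filter, median-of-ratios scaling, no variance trend, the replicate block and siDUSP6 replicate 1 alone, and ran from 0 to 1 in the fits that left out a library, the 1 being MRPL15 without siNC replicate 2. The numbers of the libraries are not known to pair them, and not every library correlated best with its own number. The small subunit median ran from -0.0831 to -0.0619 over the fits that left out a library and was -0.0430 with siDUSP6 replicate 1 alone. The large subunit median was 0.0011 under median-of-ratios scaling, which moved the median of all tested genes to -0.0047, and ran from -0.0265 to -0.0055 over the fits that left out a library. The small subunit median lay below the large subunit median in all 17 alternatives fitted. These alternatives share libraries, and another gene filter, variance trend or block leaves the log2 differences of members unchanged. The 17 are therefore not independent. DUSP6 was called in all 17.

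Of 679 values of 40 genes, 20 changed sign over 8 genes, none of them called. The 679 include values under another gene filter, variance trend or block, which could not change. MRPL50 took 0.0002 under median-of-ratios scaling, 0.0066 under quantile normalization and 0.0247 with siDUSP6 replicate 1 alone, and MRPS12 took -0.0204 with that library alone. Over the fits that left out a library, MRPL50 ran from -0.0447 to 0.0070, MRPS12 from -0.0563 to 0.0538, MRPS14 from -0.0241 to 0.1622, MRPS28 from -0.0243 to 0.0817, MRPS30 from -0.0052 to 0.0199, MRPS36 from -0.1078 to 0.0975, MRPS6 from -0.0220 to 0.0142 and MRPS9 from -0.0987 to 0.0157. The cause was not tested. Depth is unknown, so the precision of genes under 10 TPM, such as MRPS26 and MRPL57, could not be set from counts.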
